A study of Mus musculus with 31 samples.

Results

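A set of 1662 autosomal meiotic recombination hotspots appeared in mouse hybrids with a PWD parent. By the distance between hotspot centres, they matched none in any other genotype of the study. Each was present when PWD was crossed to at least 2 different partner strains. None had a centre under 400 bp away in inbred PWD, in any other inbred strain, in the Prdm9 knockout or in any hybrid without PWD. Intervals are a stricter measure, and 1237 of the set (74.4%) overlapped no hotspot interval of those genotypes. The set was drawn from 91469 autosomal hotspots in 6 hybrid lists. These merged into 52369 distinct places when hotspots whose centres lay under 400 bp apart were joined. Of these places 5504 (10.5%) had no centre under 400 bp in any of the 20 excluded lists, and 3842 of those were present with 1 partner strain only. The remaining 1662, called members here, were 3.17% of the places (exact 95% Clopper-Pearson interval 3.03 to 3.33, counting error only). Presence and absence in these lists chose the members, so both are a description and not a finding.

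Double-strand breaks were mapped in testis by DMC1 SSDS, which immunoprecipitates the recombinase DMC1 with the single-stranded DNA of resected break ends and sequences that DNA. The series held 414683 hotspots in 26 lists, 1 library each: 6 inbred strains, 19 F1 crosses and a Prdm9 knockout (strain B6;129P2-Prdm9<tm1Ymat>/J). The hybrids in question were B6fXPWDm (C57Bl/6J mother, PWD/PhJ father) and 5 crosses with a PWD/PhJ mother: PWDfXB6m (C57Bl/6J father), PWDfXC3Hm (C3H/HeJ), PWDfX13Rm (B10.F-H2pb1/(13R)J), PWDfXCASTm (CAST/EiJ) and PWDfXMOLm (MOLF/EiJ). The excluded lists were inbred B6, C3H, 13R, CAST, MOL and PWD, the knockout, and 13 crosses without PWD. The labels give neither the age of the males nor whether animals were pooled. With 1 library per genotype no value has a replicate error, and lists that share a parent are not independent.

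PRDM9 is a histone methyltransferase of meiotic germ cells whose zinc-finger array binds DNA and marks the sites where SPO11 cuts. The array differs between mouse strains, so strains with different Prdm9 alleles break their chromosomes at different places, and a hybrid carries both arrays and both genomes. A broken chromosome is repaired from its homologue, so sequence that attracts breaks tends to be replaced over generations by sequence that does not, and a PRDM9 variant can lose binding sites in the genome it lives in. PWD represents the subspecies Mus musculus musculus, and males of certain PWD by B6 crosses are a classical model of hybrid sterility that maps to Prdm9. Without PRDM9, breaks form at promoters and other sites that already carry the same histone mark.

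Few of the members lay on promoters. Of the 1662 members 9 were centred in the window from 250 bases before to 50 bases after a RefSeq start site (GRCm38.p6, the primary assembly of mm10), 5 of them at a protein-coding gene. The members at protein-coding genes were 0.301% of all, beside 0.353% of all pooled places (185 of 52369). The rule had removed places at a knockout hotspot from the members but not from the pooled places. The windows of the 5 strongest of the 9 are shown, because there the centre of the break region falls in a stretch for which reference sequence was used. The sequence is that of the reference strain B6, not of the PWD chromosome. Each is written 5′ to 3′ on the strand of its gene, and capitals mark the bases between the lowest and the highest hotspot centre among the lists, where these fall inside the window.
Gm51454: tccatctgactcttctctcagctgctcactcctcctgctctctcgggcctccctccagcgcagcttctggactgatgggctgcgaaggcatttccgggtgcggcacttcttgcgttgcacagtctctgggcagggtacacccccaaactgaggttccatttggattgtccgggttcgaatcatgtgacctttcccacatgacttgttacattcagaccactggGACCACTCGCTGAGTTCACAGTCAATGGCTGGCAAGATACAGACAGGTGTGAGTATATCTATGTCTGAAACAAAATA
Homer1: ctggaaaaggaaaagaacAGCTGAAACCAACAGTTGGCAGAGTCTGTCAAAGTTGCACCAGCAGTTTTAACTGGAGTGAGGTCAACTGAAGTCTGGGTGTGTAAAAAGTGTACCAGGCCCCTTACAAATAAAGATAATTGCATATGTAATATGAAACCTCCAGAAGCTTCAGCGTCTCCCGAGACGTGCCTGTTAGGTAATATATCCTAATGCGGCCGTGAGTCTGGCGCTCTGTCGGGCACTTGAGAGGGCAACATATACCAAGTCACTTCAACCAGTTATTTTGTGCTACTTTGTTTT
Gm35831: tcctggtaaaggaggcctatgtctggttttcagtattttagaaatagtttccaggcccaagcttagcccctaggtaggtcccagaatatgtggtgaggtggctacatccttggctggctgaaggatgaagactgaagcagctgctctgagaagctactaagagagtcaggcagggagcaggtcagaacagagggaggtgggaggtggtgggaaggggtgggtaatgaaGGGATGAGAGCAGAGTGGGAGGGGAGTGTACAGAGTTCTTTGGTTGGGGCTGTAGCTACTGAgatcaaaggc
Tshz2: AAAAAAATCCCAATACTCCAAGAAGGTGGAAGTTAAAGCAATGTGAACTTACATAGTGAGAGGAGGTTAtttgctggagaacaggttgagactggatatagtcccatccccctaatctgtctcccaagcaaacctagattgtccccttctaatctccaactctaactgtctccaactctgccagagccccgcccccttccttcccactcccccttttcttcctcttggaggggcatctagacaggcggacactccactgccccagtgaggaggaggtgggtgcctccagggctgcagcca
Gm14199: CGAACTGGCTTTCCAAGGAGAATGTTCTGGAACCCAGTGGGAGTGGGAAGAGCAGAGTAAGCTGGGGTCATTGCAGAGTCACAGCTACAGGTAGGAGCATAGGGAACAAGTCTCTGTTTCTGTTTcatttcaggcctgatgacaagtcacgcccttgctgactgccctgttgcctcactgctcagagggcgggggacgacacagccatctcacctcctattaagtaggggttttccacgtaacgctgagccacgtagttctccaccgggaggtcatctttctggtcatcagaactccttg

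The windows of Gm51454, a noncoding RNA gene (chr7:114036500-114036799, minus strand), and Homer1, which encodes a postsynaptic scaffold protein (chr13:93307784-93308083, plus strand), held members present with all 5 partner strains. Gm35831, also noncoding (chr15:88430098-88430397, minus), held a member found only with B6, 13R and C3H. The member at Tshz2, encoding a zinc-finger transcription factor (chr2:169632259-169632558, plus), was absent with CAST, and that at Gm14199, noncoding (chr2:152991582-152991881, minus), was absent with C3H and MOL. Their centres lay from -237 bp (Tshz2, upstream) to 17.8 bp (Gm51454, downstream) relative to the start site. The 6 lists placed the Gm51454 centre within 109 bp, while those of the Homer1 member spread over 310 bp. Over all 9 windows GC content ran from 44.7% (Homer1) to 66% (Zbtb11), and it was under the median of 57% over 20085 windows of protein-coding genes in the 8 windows other than Zbtb11. CG dinucleotides ran from 0 (Gm35831) to 31 (Zbtb11), against a median of 14. Both medians are of protein-coding genes, while the 9 windows include noncoding ones. The rule had removed places at knockout hotspots, and the part of that removal in these values was not tested. Zbtb11, a zinc-finger gene, held a weak member (8.15 in PWDfXB6m and 1.13 in PWDfXMOLm, as percentiles of strength within the list). The other 3 windows were those of Arhgef2, Gcnt4 and the noncoding Gm42122. No motif search was made.

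Most members had more than the 2 partners the rule asked for, though a smaller share than of places at an inbred PWD hotspot. Of the 1662, 702 (42.2%) were present with exactly 2 partner strains, 379 (22.8%) with 3, 290 (17.4%) with 4 and 291 (17.5%) with all 5. The share with 3 or more was 57.8%. It was 75.7% for 4026 PWD-hotspot places, also of 2 or more partners. Those lay at a hotspot of inbred PWD and of no other inbred strain or the knockout. Strength followed the number of partners. Strength is given as the percentile of a hotspot's deposited score within its own list, because the scale of the score between lists is not known. The median percentile was 29.7 with 2 partners, 41.6 with 3, 59.4 with 4 and 72.9 with 5, and 25.2 for the 3842 hybrid-only places of 1 partner, which are not members. At the PWD-hotspot places it rose likewise, from 22.4 with 2 partners to 29.7 with 3, 41.7 with 4 and 63.5 with 5. Presence and score come from the same lists, so this order is a description.

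Members were not spread evenly over the partners. B6 was a partner of 1429 members (86.0%), C3H of 1361 (81.9%), CAST of 861 (51.8%), MOL of 822 (49.5%) and 13R of 683 (41.1%). Nearly every member found with 13R was also found with B6 (671 of 683, 98.2%), whereas 671 of 1429 B6 members (47.0%) were found with 13R. The B10 background of the 13R strain is closely related to B6, so B6 and 13R are not independent partners. Counting them as 1 partner lowered the share with 3 or more partners from 57.8% to 48.7%. The most frequent combination was B6 with C3H alone (397 members, 23.9%), then all 5 partners (291), CAST with MOL alone (151, 9.09%), B6 with 13R and C3H (139) and those 3 with CAST (109).

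Many members kept to one group of partner strains, the classical laboratory strains or the wild-derived ones. Of the members, 562 (33.8%, 31.5 to 36.1) occurred only with partners among B6, 13R and C3H, 151 (9.09%, 7.75 to 10.6) only with CAST and MOL, and 949 (57.1%) on both sides. The reference set was 4026 autosomal places, also of 2 or more partners, that lay at a hotspot of inbred PWD and of no other inbred strain or the knockout. Of those, 15.2% (14.1 to 16.4) occurred only with B6, 13R and C3H, 2.14% (1.71 to 2.63) only with CAST and MOL, and 82.6% on both sides. The share of members exceeded that of the PWD-hotspot places by 18.6 percentage points for the laboratory strains and by 6.95 for CAST and MOL. The sets also differed in partner number, as 42.2% of members and 24.3% of PWD-hotspot places had exactly 2 partners. A place found only with CAST and MOL always has exactly 2. The part of partner number in the differences was not tested. The same presence calls chose the members, so these differences describe the 6 libraries and were not tested. Among the strongest 50% of each list the differences were 10.8 and 5.63 points. Without PWDfXC3Hm the first was 11.6, and without PWDfXCASTm it was 29.0. The share of members itself depends on which lists are pooled: without PWDfXC3Hm 13.4% occurred only with B6, 13R and C3H, without PWDfXCASTm 53.5% and without PWDfXMOLm 51.0%.

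**Figure D1:**
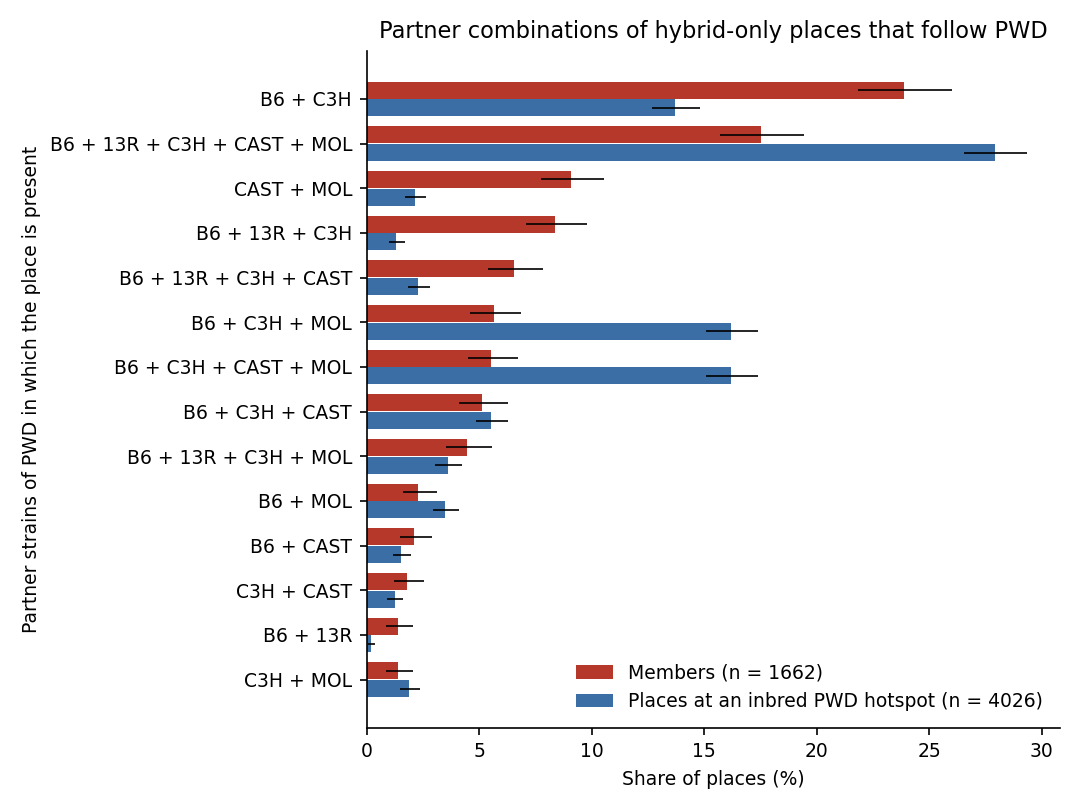
Share of places (%, horizontal axis) for the 14 most frequent combinations of partner strains (vertical axis), for the 1662 members (red) and for the 4026 places at an inbred PWD hotspot (blue); bars start at 0 and lines are exact 95% intervals for counting error only. B6 + C3H, CAST + MOL and B6 + 13R + C3H were more frequent among members (23.9%, 9.09% and 8.36%) than among PWD-hotspot places (13.7%, 2.14% and 1.32%), and the combination of all 5 was less frequent (17.5% against 27.9%).

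Single combinations differed in both directions. B6, 13R and C3H together and no other partner made up 8.36% of members and 1.32% of PWD-hotspot places (53 of 4026). B6 with C3H and MOL showed the reverse, at 5.66% of members (94) and 16.2% of PWD-hotspot places (652), as did B6 with C3H, CAST and MOL (5.54% and 16.2%). By partner, members were found less often with MOL (49.5% against 74.0%), C3H (81.9% against 90.5%), B6 (86.0% against 93.9%) and CAST (51.8% against 59.3%). They were found slightly more often with 13R (41.1% against 36.4%). Members were not weaker as a set, with a median percentile of 51.8 against 43.2.

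Within each hybrid, members made up between 4.71% of autosomal hotspots (PWDfXCASTm, 861 of 18270) and 9.07% (B6fXPWDm, 1172 of 12918). The share was 8.69% in PWDfXC3Hm (1361), 8.40% in PWDfXB6m (1408), 5.51% in PWDfXMOLm (822) and 5.28% in PWDfX13Rm (683). The 3 crosses with B6 or C3H all lay above the 3 with 13R, CAST or MOL. Members held similar shares of summed strength, from 4.42% (PWDfX13Rm) to 9.16% (B6fXPWDm). The lists also differed in how much of inbred PWD they recovered, from 18.5% of its autosomal hotspots in PWDfX13Rm to 46.2% in PWDfXB6m, and the part this plays in the member counts was not tested.

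In all 6 hybrids members were stronger at the median than the hotspots at places of PWD but not of the partner. The median percentile of members was 52.2 in B6fXPWDm, 55.8 in PWDfXB6m, 50.9 in PWDfXC3Hm, 42.4 in PWDfX13Rm, 51.8 in PWDfXCASTm and 52.8 in PWDfXMOLm. Hotspots at an inbred PWD hotspot and not at one of the partner strain had medians of 45.6, 48.1, 45.1, 38.7, 39.3 and 41.0 in the same order. The difference averaged 8.01 points ± 3.52 (SD over 6 hybrids), from 3.65 in PWDfX13Rm to 12.6 in PWDfXCASTm. Hotspots at places of both parents had medians of 43.8, 53.7, 55.9, 69.1, 77.2 and 71.2 in the same order. These medians were above those of members in all hybrids except the ones with B6. Such hotspots numbered 1591 in PWDfXCASTm and 1702 in PWDfXMOLm, and 88 to 156 in the other lists. Against hotspots at places of the partner strain only, members differed by -0.784 ± 5.47 points, higher in 4 of 6 hybrids and lowest in PWDfX13Rm (42.4 against 53.5). Of members, 5.12% (PWDfX13Rm) to 10.7% (PWDfXB6m) were among the strongest 10% of their list, which holds 10% of all its hotspots by definition. That share was 5.05% (PWDfX13Rm) to 7.29% (PWDfXB6m) for PWD-only hotspots. For partner-only hotspots it was 8.68% (PWDfXCASTm) to 11.4% (PWDfX13Rm). Members had to recur across partner strains, whereas hotspots at PWD's or the partner's places did not, and strength followed the number of partners. The classes were thus not chosen alike, and the part of recurrence in the differences was not tested. The reference set of PWD-hotspot places had to recur as members did, and its median percentile was 43.2, against 51.8 for members. None of these differences was tested, since the rule used these lists.

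**Figure D2:**
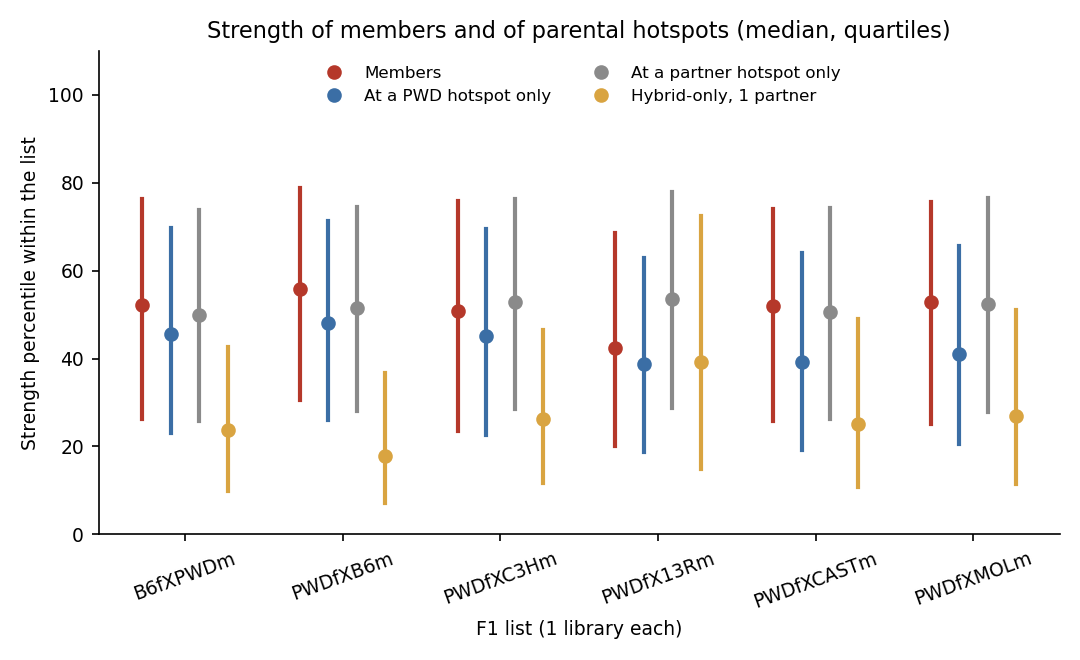
Strength percentile within the list (vertical axis) of 4 classes of autosomal hotspots in each of the 6 F1 lists (horizontal axis); points are medians and lines run from the first to the third quartile. Member medians lie between 42.4 and 55.8 and above those of PWD-only hotspots in each list. Hotspots at places of both parents are not drawn. The quartile ranges of members, PWD-only and partner-only hotspots overlap in every list. Only members had to recur across partner strains.

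The cross between B6 and PWD was made in both directions. Of the 1429 members found with B6, 1151 (80.5%) were in both lists, 257 (17.98%) in PWDfXB6m alone and 21 (1.47%) in B6fXPWDm alone. PWDfXB6m was the longer list, with 16759 autosomal hotspots against 12918, and members found in it alone were weak there (median percentile 16.01, against 63.9 for those in both). As a share of each list, the 1151 were 98.2% of members in B6fXPWDm and 81.7% of those in PWDfXB6m. Across these 1151 places Spearman's rank correlation of strength was 0.931. Places are not replicates, and every point comes from the same 2 libraries.

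Among the laboratory strain partners the order of strengths was similar between hybrids. Between lists within the group of B6, 13R and C3H partners, the correlation over 623 to 1266 shared members lay between 0.787 (PWDfX13Rm and PWDfXC3Hm) and 0.885 (PWDfXB6m and PWDfXC3Hm). Between one of these and the CAST or MOL hybrid it lay between 0.617 and 0.739, over 390 to 648 members. CAST and MOL hybrids shared 583 members, at a correlation of 0.661, below 4 of the 8 values between the groups. At PWD-hotspot places the same measures were 0.702 to 0.865, 0.531 to 0.631 and 0.514, the last being the lowest of the 15 pairs, and 0.890 for the reciprocal pair. Median distances between the centres of a shared member ran from 44 bp to 62 bp over the 15 pairs. Only neighbouring centres under 400 bp apart were joined, so the rule itself limits these distances.

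To see whether places that recur with several partners recur in a further one, each partner strain was left out in turn and the places were chosen from the other lists. Places seen with 2 or more of the other partners were found in the held-out list in 73.5% (B6fXPWDm), 78.9% (PWDfXB6m), 75.1% (PWDfXC3Hm), 39.7% (PWDfX13Rm), 44.2% (PWDfXCASTm) and 42.0% (PWDfXMOLm). Hybrid-only places seen with 1 other partner were found in 8.91%, 13.8%, 12.3%, 0.822%, 8.59% and 6.62%. Recovery averaged 55.4% ± 18.5 against 7.94% ± 4.57 (SD, n = 5 partners, both B6 lists averaged), a difference of 47.5 percentage points ± 14.97. It was positive for 5 of 5 partners (two-sided exact sign-flip permutation test, p = 0.0625, the smallest that 5 partners allow, so the design could not reach 0.05). The test treats the partners as independent, and B6 and 13R are not. With B6 and 13R held out together as 1 partner the difference was 45.3 points ± 11.7 (SD, n = 4, exact permutation p = 0.125, again the smallest possible). When found, places of 2 or more partners were also stronger in the held-out list, by 24.1 percentile points ± 14.5, again with 5 of 5 partners (exact permutation p = 0.0625). That difference was 5.87 among the strongest 50% of each list, positive with 4 of 5 partners (exact permutation p = 0.3125). It was 21.2 when any overlap of intervals removed a place, also positive with 4 of 5 (exact permutation p = 0.125). Places of 2 or more partners were stronger than those of 1 partner to begin with, and the part of strength in the recovery was not tested.

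**Figure D3:**
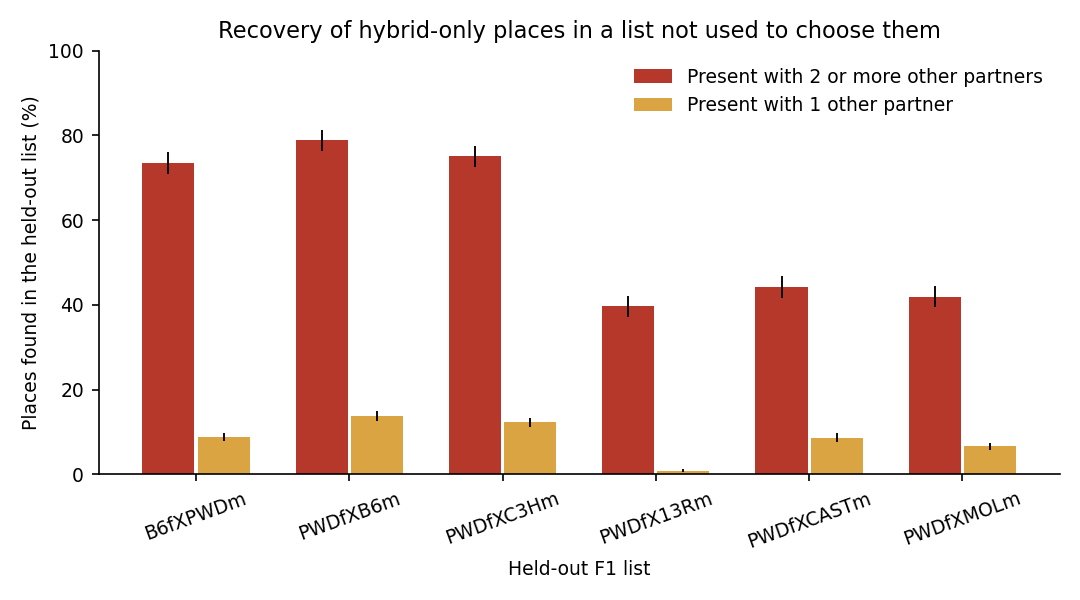
Share of hybrid-only places (%, vertical axis) found in an F1 list that had no part in choosing them (horizontal axis), for places present with 2 or more other partners (red) and with 1 other partner (yellow); lines are exact 95% intervals for counting error only. Recovery lies between 39.7% and 78.9% for the first and between 0.822% and 13.8% for the second.

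The strongest members, by the mean percentile over the 6 lists with absence counted as 0, were all present with 5 partners. The first lay inside Ift80, which encodes an intraflagellar transport protein of cilia, at chr3:68939294-68944253, with percentiles of 98.7 (B6fXPWDm), 99.5 (PWDfXB6m), 99.7 (PWDfXC3Hm), 99.8 (PWDfX13Rm), 99.9 (PWDfXCASTm) and 98.7 (PWDfXMOLm). The second, inside Mllt3 (chr4:88015014-88019215), a chromatin reader gene of transcription elongation, ran from 99.1 to 99.7. Both were thus among the strongest 2% of hotspots in every hybrid and had no hotspot centre under 400 bp away in inbred PWD or any partner. The third lay inside Ganab (chr19:8905667-8910222), which encodes a glucosidase of glycoprotein folding, and ran from 96.6 in PWDfXCASTm to 100 in PWDfXMOLm. Near Gfra1, the receptor gene for GDNF on spermatogonial stem cells, a member centred 1003 bp from the gene (chr19:58232595-58236560) was the strongest autosomal hotspot of B6fXPWDm (percentile 100) and lowest in PWDfXMOLm (97.4). The fifth lay 18577 bp from Slc52a3, a riboflavin transporter gene (96.7 to 100, lowest in PWDfXMOLm).

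The next members varied more between hybrids, mostly through PWDfX13Rm. A member inside Trio, a guanine nucleotide exchange factor gene (chr15:28005291-28010382), stood at 98.1 to 99.4 in 5 hybrids and at 92.2 in PWDfX13Rm. One near Prickle1, a planar cell polarity gene (chr15:93876810-93881479), stood at 99.4 to 100 in 5 hybrids and at 80.7 in PWDfX13Rm. A member 21181 bp from Foxa1, the gene of a pioneer transcription factor, was instead lower with CAST (93.0) and MOL (92.4) than in the other 4 lists (98.8 to 99.7). Of the 20 strongest, 9 had their centre inside a protein-coding gene: also Sgk3, a kinase gene, Lrrc8c, an anion channel subunit gene, Tcf7l1, a transcription factor gene of Wnt signalling, Mgmt, a DNA repair gene, and Utrn, the gene of utrophin. The sixth and the eleventh members had the same nearest gene, 4930583I09Rik, 119096 bp and 29075 bp away.

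**Figure D4:**
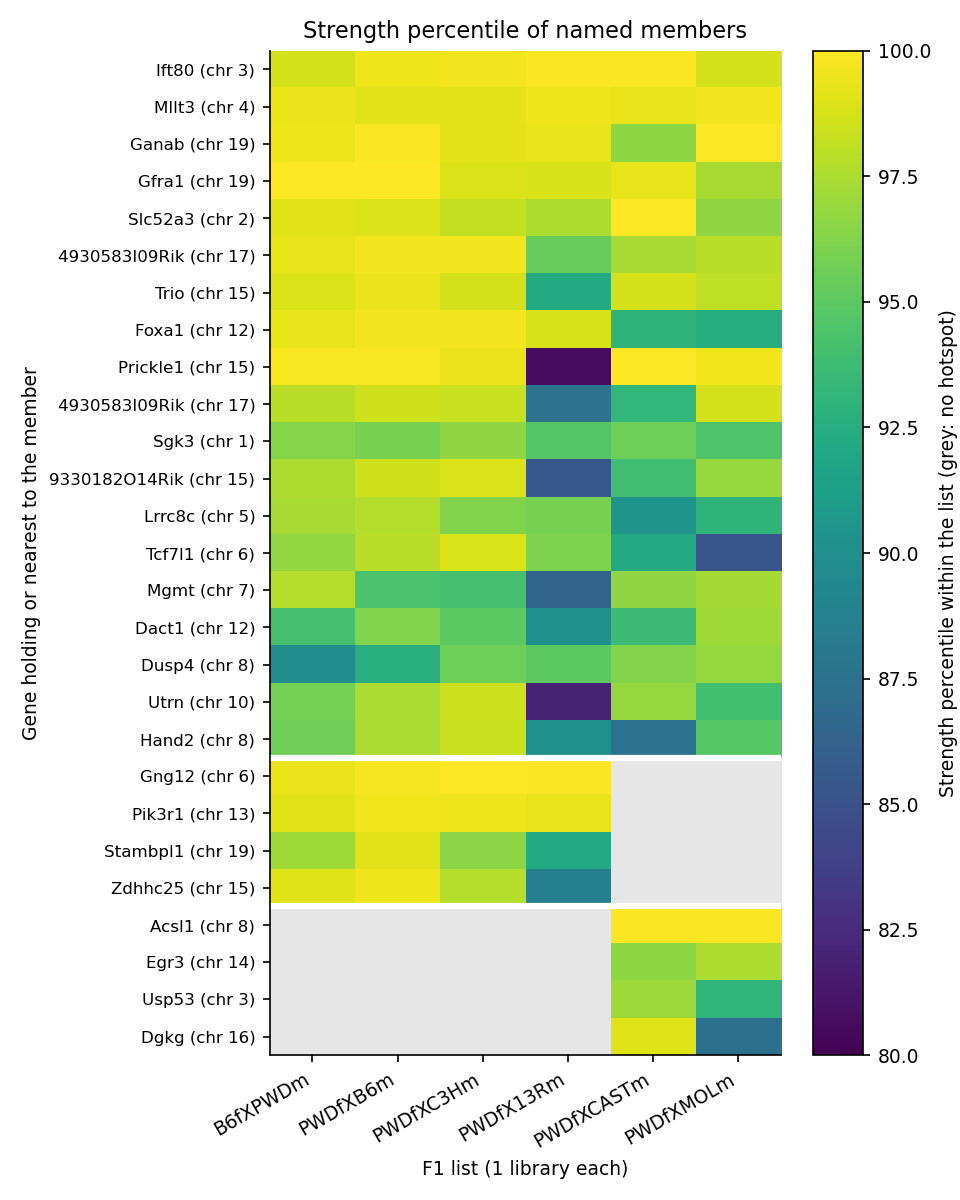
Strength percentile within the list (colour, scale from 80 to 100; grey where the list has no hotspot) of 19 of the 20 strongest members, then the 4 strongest found only with B6, 13R and C3H, then the 4 strongest found only with CAST and MOL; rows are named by the gene that holds the member or has the nearest end, columns are the 6 F1 lists. PWDfX13Rm holds the lowest value of the Prickle1 member (80.7) and of the Utrn member (81.9).

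Some members were near the top of one group of hybrids and absent from the other. These were chosen after their values were seen, as the 4 strongest of each kind. A member inside Gng12, a G protein gamma subunit gene (chr6:66932294-66936949), stood at 99.4 (B6fXPWDm), 99.7 (PWDfXB6m), 100 (PWDfXC3Hm) and 99.9 (PWDfX13Rm) and had no hotspot in PWDfXCASTm or PWDfXMOLm. One 17913 bp from Pik3r1, the gene of a phosphoinositide kinase regulatory subunit (chr13:101783365-101788948), stood at 99.1 to 99.6 in the same 4 lists and was likewise absent from the other 2. Conversely, a member 6038 bp from Acsl1, a fatty acid activation gene (chr8:46540184-46544023), stood at 99.9 with CAST and 99.9 with MOL and had no hotspot in the 4 other lists. Next came members near Egr3, a zinc-finger transcription factor gene (96.6 and 97.6), near Usp53 (97.1 and 93.2) and inside Dgkg, a diacylglycerol kinase gene (99.0 and 87.3). At the level of the group, members only with B6, 13R and C3H had a median percentile of 37.8, those only with CAST and MOL 51.4 and those on both sides 57.0.

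With knockout hotspots excluded, members fell in and around genes in shares close to those of all pooled places. The centre lay no more than 1000 bp from a protein-coding gene's end in 71 members (4.27%, 3.35 to 5.36), against 4.36% of all pooled places, 3.80% of inbred PWD hotspots and 33.0% of knockout hotspots. The knockout list was among those excluded, so places at gene ends shared with it had been removed from the members. They had not been removed from the pooled places. Without that exclusion the share of members near gene ends was 10.4%, so the likeness to pooled places there depends on it. Members inside a protein-coding gene numbered 886 (53.3%, 50.9 to 55.7), beside 53.1% of pooled places. The median distance to the nearest gene end was 31.0 kb, against 31.8 kb. Of the 291 members with all 5 partners 5 lay near a gene end (1.72%, 0.560 to 3.96), while the shares with 2, 3 and 4 partners were 4.84%, 4.75% and 4.83%.

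Among the members at gene ends, one lay at Fdft1, the squalene synthase gene (chr14:63178743-63182682), 985 bp from an end, at 93.9 to 98.4 in 5 lists and absent with MOL. Members at Kctd11 and at Ccdc192 were present with all 5 partners, at 45.9 to 85.8 and 34.1 to 90.8. Those at Gse1 and Gins2, the latter encoding a subunit of the replicative helicase complex, at Apobec1, the gene of an RNA-editing cytidine deaminase, at Kif20a and Cdc23, genes of cytokinesis and of the anaphase-promoting complex, and at Myo18a were all absent with MOL. Trim66 and Baalc held members absent with 13R. Of the 9 members named here 7 were present in PWDfX13Rm, and in 6 of the 7 its percentile was the lowest of the lists that held them.

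Of 20665 autosomal protein-coding genes, 845 (4.09%) held a member inside or within 1000 bp of an end, against 4552 (22.0%) for the far more numerous hotspots of inbred PWD. Of these genes 776 held 1 member, 58 held 2 and 8 held 3. The most were in Pde4d, a cyclic AMP phosphodiesterase gene (5 members), Fhod3, a formin gene, and Prkg1, a cyclic GMP-dependent kinase gene (4 each). All 3 are long, from 425 kb (Fhod3) to 1302 kb (Pde4d), and a longer gene has more room for hotspots. Of 48 genes of meiotic prophase and recombination 1 held a member: Sycp1, which encodes the transverse filament of the synaptonemal complex. That member was weak, at 32.5 in PWDfXB6m, 24.1 in PWDfXC3Hm, 5.84 in PWDfXCASTm and 0.255 in B6fXPWDm. None of 8 genes of PRDM9 and its partners at hotspots did. Inbred PWD had hotspots at 21 of the 48 and 4 of the 8.

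Among the larger families, set beside 4.09% of all genes, members lay in 22 of 376 solute carrier genes (5.85%), 13 of 92 potassium channel genes (14.1%), 12 of 391 zinc-finger genes (3.07%), 6 of 27 glutamate receptor genes (22.2%), 5 of 95 cadherin and protocadherin genes (5.26%), 5 of 59 ADAM metalloprotease genes (8.47%), 3 of 27 semaphorin and plexin genes (11.1%) and 3 of 1104 olfactory receptor genes (0.272%). These lists were made by the start of the gene symbol alone. The zinc-finger list thus holds genes named Zfp and not others such as Zbtb11. The ADAM list holds every symbol starting with Adam, among them Adamts12 and Adamtsl1. Hotspots of inbred PWD, set beside 22.0% of all genes, lay in 26.9%, 29.3%, 17.6%, 51.9%, 41.1%, 22.0%, 48.1% and 1.45% of the same lists. Gene length differs between these lists, with a median of 240 kb for glutamate receptors, 34.5 kb for potassium channels, 0.95 kb for olfactory receptors and 17.5 kb for all genes, so shares cannot be compared between lists without it. The strongest in these families lay inside Slc14a2, a urea transporter gene (81.8 to 94.8 over 6 lists), Slc35b1, a nucleotide sugar transporter family gene (76.7 to 89.2), Plxnc1, a semaphorin receptor gene (35.5 to 88.6), Zfp568 (62.1 to 82.8), Cdh23, a gene of hair-cell tip links (55.5 to 80.3), Kcnh5 (46.1 to 82.2) and Grm4, a metabotropic glutamate receptor gene (56.7 to 79.3). Of the 3 at olfactory receptor genes, Olfr8 (7.83 to 73.5) and Olfr267 (60.1 to 68.0) were found with laboratory strain partners only and Olfr66 (29.7 and 10.1) with CAST and MOL only.

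Every autosome held members, from 57 on chromosomes 15 and 19 to 121 on chromosome 2. As a share of the pooled places they ran from 2.47% on chromosome 13 (1.89 to 3.16) to 3.76% on chromosome 18 (3.01 to 4.64), and these extreme intervals overlapped. The last 10 Mb of the chromosomes held 9.99% of members and 8.55% of pooled places, and the first 20 Mb 12.0% and 12.5%. Neighbouring members lay a median of 837 kb apart. The densest stretch held 8 members in 842 kb of chromosome 11 (116407892 to 117250257), where 38 pooled places and 13 inbred PWD hotspots lay. Near Sec14l1 it had a member 3004 bp from the gene found with CAST and MOL only (61.0 and 87.9) and another at 2002 bp found with B6, 13R and C3H only (13.95 to 68.0). The intervals of the 2 overlapped (117109973 to 117114090 and 117111963 to 117114424), so they are separate by their centres only.

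Members lay mostly well beyond the matching distance from PWD's own hotspots, as did hybrid-only places of 1 partner. The nearest inbred PWD hotspot was a median of 50.7 kb away, and it was under 1 kb away for 54 members (3.25%). For hybrid-only places of 1 partner the median was 48.6 kb, with 4.09% under 1 kb. The merged interval of a member overlapped an inbred PWD hotspot interval in 99 cases (5.96%), and 1237 members (74.4%) overlapped no interval of any excluded list. Just inside the threshold, 52 members had their nearest excluded centre at 400 to 500 bp (median percentile 39.7), and just outside, 80 places with 2 or more partners had it at 300 to 400 bp (38.5). The member nearest to an inbred PWD centre, at 407 bp, lay closest to Olfr1505 and was weak (0.619 to 17.6 in 4 lists). The place just outside, at 399.5 bp, lay inside Washc2 (69.4 in PWDfXB6m and 6.19 in PWDfXC3Hm).

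The X chromosome, which the rule did not use, is carried once in males and comes from the mother. By the same steps it held 13 such places of 2738 (0.475%, 0.253 to 0.811), against 3.17% on the autosomes. Hybrid-only X places of any number of partners were 205 (7.49%, against 10.5%). In each of the 6 hybrids the share of hybrid-only hotspots was lower on X. It was 6.30% on X and 11.6% on autosomes in B6fXPWDm, the hybrid with an X from B6. In those with an X from PWD it was 2.51% and 12.3% (PWDfXB6m), 7.22% and 11.9% (PWDfXC3Hm), 3.76% and 9.04% (PWDfX13Rm), 7.69% and 12.7% (PWDfXCASTm) and 2.59% and 10.6% (PWDfXMOLm). Within the reciprocal pair, the B6 X carried 43 hybrid-only hotspots of 683 and the PWD X 19 of 758, with exact intervals of 4.59 to 8.39% and 1.52 to 3.89%. Those on the B6 X were also the stronger (median 43.5 against 15.4, as percentiles among the autosomal hotspots of the list), and 39 of the 43 were in no other PWD hybrid.

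**Figure D5:**
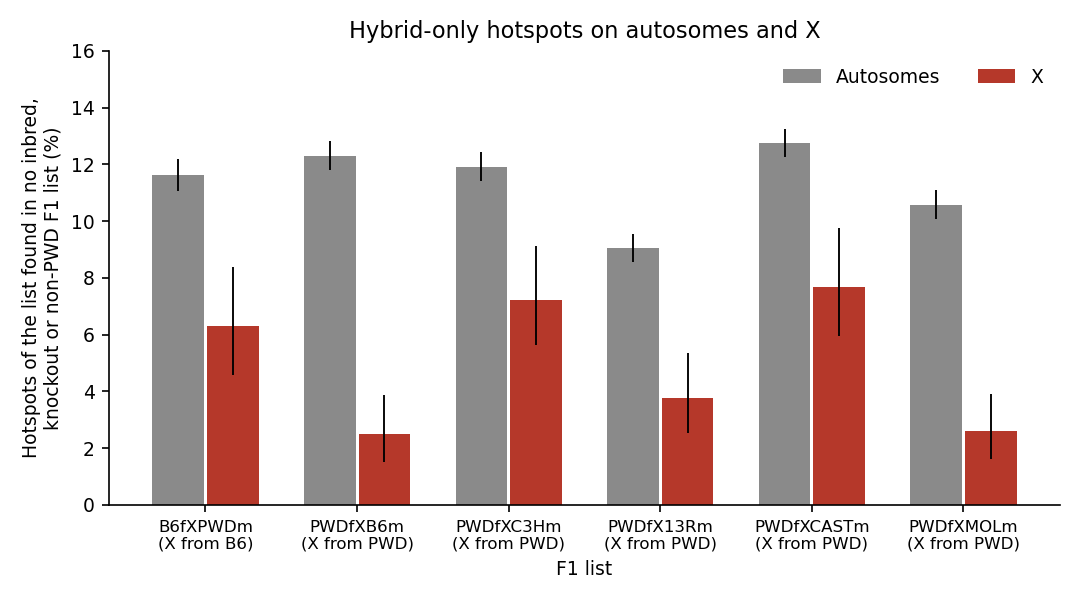
Share of a list's hotspots (%, vertical axis) that lie in no inbred, knockout or non-PWD F1 list, on autosomes (grey) and X (red), for the 6 F1 lists (horizontal axis, with the strain that gave the X); lines are exact 95% intervals for counting error only. The X value is below the autosomal one in all 6 lists, and with an X from PWD it ranges from 2.51% to 7.69%.

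Because 5 of the 6 hybrids carry the PWD X and no partner X, the number of partners does not mean the same on X as on autosomes. Of the 13 X places 1 lay inside Amer1, which encodes a regulator of Wnt signalling, and was present in all 6 lists at 28.6 (PWDfX13Rm) to 63.3 (B6fXPWDm). Of the others, 3 lay at Xlr3b and Xlr3c and 2 at Gm15143, with percentiles from 1.22 to 56.2. The Xlr3 genes are near-identical copies, where the placement of short reads is uncertain.

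Under the same rule applied to each strain in turn, the share of pooled places was 5.80% for CAST (1826 members), 3.17% for PWD, 3.16% for MOL (1473), 2.94% for 13R (845), 1.55% for B6 (890) and 0.963% for C3H (526). PWD and MOL did not differ beyond counting error (3.03 to 3.33 and 2.999 to 3.32), and the number of crosses and partners differs between strains. On X, PWD (0.475%) lay below CAST (3.48%), 13R (3.56%), MOL (1.68%) and B6 (0.915%) and above C3H (0.105%). PWD was the mother in 5 of its 6 crosses, so its share on X cannot be told apart from the direction of its crosses.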

How the data were processed

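The deposited files list, for each of 26 DMC1 SSDS libraries, the start, end and a strength score of every hotspot called by the authors. The submitters' processing notes name CASAVA 1.8, MACS2 2.0.10 and the mm10 build. The sources used here do not give how the score was scaled, the filters or the read depth, and 104 scores lie below 0, so the score was used only within its list, as a percentile among the autosomal hotspots or as a share of their summed score. File starts were read as 0-based and coordinates are printed 1-based. The 5 input samples had no file among those used. The series text says that 1 sample was removed as wrongly labelled; the sample it names is labelled CAST here, and the CAST list was used as labelled.

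Hotspots of the 6 PWD hybrids were pooled with centres under 400 bp apart, also in chains; 42 members span more than that. A place takes the mean centre and, in each list, its strongest hotspot. It was a member when no excluded list had a centre under 400 bp and at least 2 partner strains had it. Genes, 20665 of them protein-coding on 19 autosomes, came from a RefSeq table of GRCm38.p6 without strand, so both gene ends count. A planned motif search was not run because genome sequence was not used here. The rule for naming took the 20 strongest members, the 10 strongest at gene ends, up to 4 per gene list, those at the distance threshold and the densest run; 1 member that it names is not reported here. Members of any list are named by the gene holding the centre or the nearest end. The members, gene lists and tests were chosen with earlier results of these data known. The reference set of PWD-hotspot places and the members named by partner group were added after seeing the data. Intervals are exact Clopper-Pearson at 95% and cover counting error only. The rule was tested on simulated lists. Python 3.11.15, numpy 2.4.6 and scipy 1.17.1 were used.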

Additional observations from a re-analysis of the deposited data

Results flagged for a closer look

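PWDfX13Rm had the lowest strength of members among the 6 hybrids: their median percentile was 42.4, while the others lay between 50.9 and 55.8. The gap to the nearest hybrid was 0.631 of the whole range, just above the 95% limit of Dixon's test for 6 values. That test needs independent values, whereas the 6 lists share the PWD parent and were used to choose the members. It therefore cannot decide whether this hybrid stands apart, and no conclusion is drawn from it. Of 16 quantities compared over the 6 lists 1 passed that limit. For independent values chance alone passes it in about 1 in 20, so 1 of 16 is near the number that chance gives. The same hybrid held the fewest members (683) and recovered the least of inbred PWD (18.5% of its hotspots). Whether these move the median was not tested.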

How the results depend on the processing

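No paired analysis was possible because each genotype has 1 library. The members depend on where the line around an excluded hotspot is drawn. With 200 bp between centres the share of pooled places was 3.55% and that near gene ends 5.90%, with 800 bp 2.96% and 2.94%. When any overlap of intervals removed a place they were 2.36% and 2.59%, at a median percentile of 49.9. Without the knockout list the share of pooled places was 3.49%, near gene ends 10.4%, inside genes 56.0%, with 3 or more partners 54.1%, and the median percentile 49.03. With only the inbred and knockout lists excluded the share of pooled places was 4.73%, with 3 or more partners 48.2%, only with B6, 13R and C3H 46.3%, and the median percentile 57.8. From the strongest 50% of each list 777 members remained by count (2.83%, median percentile 76.3), and the excess over PWD-hotspot places in the share only with B6, 13R and C3H was 10.8 points. With B6 and 13R as 1 partner 48.7% had 3 or more, and a window of 2500 bp put 10.2% near gene ends. Leaving out each hybrid in turn gave 1211 to 1647 members, 2.57% to 3.76% of pooled places, 48.6% to 60.7% with 3 or more partners, 13.4% (without PWDfXC3Hm) to 53.5% (without PWDfXCASTm) only with B6, 13R and C3H, 4.05% to 4.49% near gene ends, 52.8% to 54.0% inside genes and a median percentile of 51.8 to 56.7. The excess over PWD-hotspot places was then 11.6 to 29.0 points for B6, 13R and C3H and 6.95 to 10.6 for CAST and MOL, which needs both of those hybrids and has no value without either. Held-out recovery kept its direction in 12 of 12 alternatives, between 43.1 and 50.5 points. The mean held-out difference in strength stayed above 0 in 12 of 12, between 5.87 and 28.5, but was positive with 4 of 5 partners in the strongest 50% (exact permutation p = 0.3125) and with any overlap (exact permutation p = 0.125). Holding out B6 and 13R as 1 partner was chosen after seeing the data. Read depth, which is not known, limits which weak hotspots were called in each list, so absence from a list is absence of a call.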
